A study of Homo sapiens with 7 samples.

Results

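The AP-1 and immediate early factors examined here were 10 genes chosen by name, FOS, FOSB, FOSL1, FOSL2, JUN, JUNB, JUND, ATF3, EGR1 and IER3, of the 56236 genes to which the measured transcripts could be assigned. The choice was made with earlier results of these data known, so counts of members past a limit are a description and not independent support. They were measured by RNA-seq in TE5 and KYSE140, established cell lines from human esophageal squamous carcinoma, in which TP63 or SOX2 had been silenced with a short hairpin RNA (shRNA) delivered by lentivirus. Both factors are master regulators of squamous cells, and the study asked which genes depend on them and, in TE5, on CCAT1, a long noncoding RNA. There were 7 libraries. TE5 gave a library with a non-targeting scramble shRNA and libraries with shTP63, shSOX2 and shCCAT1. KYSE140 gave scramble, shTP63 and shSOX2 libraries. Each condition was thus 1 library of 1 line made with 1 hairpin, and all cells, controls included, carried an shRNA vector and were grown with fetal bovine serum.

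AP-1 is a dimer of basic leucine zipper proteins. The FOS proteins FOS, FOSB, FOSL1 (Fra-1) and FOSL2 (Fra-2) do not pair stably with themselves and bind DNA together with JUN, JUNB or JUND, whereas JUN proteins can also pair with each other. ATF3 belongs to the same zipper class and is induced by many kinds of stress, EGR1 is a zinc finger factor, and IER3 is a small protein that modulates survival and ERK signaling. FOS, FOSB, JUN, JUNB, ATF3, EGR1 and IER3 are classical immediate early genes, transcribed within minutes of growth factor or stress signals without new protein synthesis and giving short-lived mRNAs. FOSL1 and FOSL2 follow more slowly and are often sustained in tumors with active MAP kinase signaling. In squamous epithelium AP-1 controls genes of differentiation, migration and matrix remodeling.

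The libraries held between 68532611 and 98036494 estimated counts, and each member had at least 254 estimated counts in every library. The lane of each scramble library was not that of its line's knockdown libraries, so that knockdown and lane cannot be told apart in any comparison with scramble. TE5 scramble was also on another flow cell than all other libraries. In TE5, knockdown and flow cell thus cannot be told apart either. The knockdown libraries of a line shared a lane, and shTP63 over shSOX2 is therefore given as a second comparison. Transcripts annotated as retained introns took 3.13% of counts in TE5 scramble and 3.70% to 3.88% in the TE5 knockdown libraries, and 4.25% against 4.58% and 4.88% in KYSE140. Their part in the results was not tested. TP63 was at 25.9% of the scramble level in TE5 shTP63 and at 26.1% in KYSE140 shTP63. SOX2 was at 39.5% in TE5 shSOX2 but at 77.3% in KYSE140 shSOX2, where the log2 change was -0.37, so the SOX2 comparison in KYSE140 rests on a small reduction of its target. SOX2 was also at 67.2% of scramble in TE5 shTP63 and at 104% in KYSE140 shTP63. TP63 was at 116% in TE5 shSOX2 and at 127% in KYSE140 shSOX2. The shTP63 and shSOX2 libraries of a line thus differed in the level of both factors. CCAT1 itself is not analysed here, so that the reduction of CCAT1 in the shCCAT1 library was not checked, and results of that library are those of the library labelled shCCAT1. Squamous epithelium markers summed to between 1944 and 3929 TPM (transcript level scaled for length and library total) in TE5 and between 10745 and 22758 TPM in KYSE140, with the lowest value of each line in shTP63 (TP63 itself is on the list). Leukocyte markers summed to at most 1.86 TPM, endothelium markers to at most 9.28 TPM and fibroblast markers to between 13.5 and 44.9 TPM in any library, with CD3E, LYZ, LUM or CDH5 at 0 in some. The 9.28 TPM of endothelium markers was in TE5 shTP63, against 2.37 TPM in TE5 scramble. Simple epithelium markers summed to between 2531 and 3628 TPM in TE5 and between 2034 and 2522 TPM in KYSE140. The highest value of each line was in shTP63. The part of the squamous and other marker shifts in the results was not tested.

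The sequence just before the start of the most abundant transcript of FOS, FOSB, JUN, ATF3 and EGR1 is shown as 5 examples of classical immediate early genes with matches to known response elements. The bases are from the GRCh37 (hg19) genome, with transcript starts from GENCODE, end at the base before the start and run 5′ to 3′ on the gene's strand. Capitals mark every match to the searched motifs: TGANTCA (the AP-1 site), TGACNTCA on either strand (the cyclic AMP response element and the JUN-type site), TGACGT on either strand (a shorter element that overlaps with the former), the CArG box bound by serum response factor, and TATAAA on the gene's strand.
FOS, 150 bases, chr14:75745381-75745530, plus strand: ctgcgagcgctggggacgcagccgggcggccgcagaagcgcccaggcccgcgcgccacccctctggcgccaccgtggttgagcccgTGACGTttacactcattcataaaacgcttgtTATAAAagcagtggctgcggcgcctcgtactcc
FOSB, 300 bases, chr19:45970953-45971252, plus strand: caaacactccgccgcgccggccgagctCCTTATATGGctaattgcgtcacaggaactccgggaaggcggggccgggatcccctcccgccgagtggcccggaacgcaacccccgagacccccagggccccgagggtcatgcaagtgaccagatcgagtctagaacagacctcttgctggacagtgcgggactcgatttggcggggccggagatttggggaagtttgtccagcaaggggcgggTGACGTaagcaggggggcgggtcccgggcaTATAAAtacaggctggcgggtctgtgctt
JUN, 150 bases, chr1:59249720-59249869, minus strand: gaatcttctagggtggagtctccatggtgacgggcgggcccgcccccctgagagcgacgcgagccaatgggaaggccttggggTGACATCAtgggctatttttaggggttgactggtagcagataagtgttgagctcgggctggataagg
ATF3, 150 bases, chr1:212781953-212782102, plus strand: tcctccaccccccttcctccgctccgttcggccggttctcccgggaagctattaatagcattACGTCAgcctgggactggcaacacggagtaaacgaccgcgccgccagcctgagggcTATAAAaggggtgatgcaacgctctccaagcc
EGR1, 150 bases, chr5:137801018-137801167, plus strand: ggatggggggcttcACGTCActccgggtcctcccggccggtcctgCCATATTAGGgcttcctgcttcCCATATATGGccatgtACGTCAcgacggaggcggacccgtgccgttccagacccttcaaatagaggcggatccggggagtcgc

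In the 300 bases before the start, TGACGT was found in 7 of the 10 members, among them FOS, FOSB, ATF3 and EGR1, and in 8.34% of the windows of 23495 genes measured here. TATAAA was present in FOS, FOSB, JUNB and ATF3, against 7.09% of all windows. TGACNTCA was present in JUN, as TGACATCA between -67 and -60, and in JUND, against 6.81% of windows. The CArG box, held by 1.34% of windows, was found once in FOSB, between -273 and -264, and at 2 positions in EGR1, -105 to -96 and -83 to -74. TGANTCA, held by 6.80% of windows, was in none of the 10. IER3 had no match to any of these motifs. Bases farther upstream were not searched, so a gene without a match here may hold one there. Matches of letters are a description and say nothing of binding in these cells.

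The TPM ranges of the lines did not overlap for 5 of the 10 members and overlapped for the other 5. The share of all genes without overlap was not computed, so this count does not set the members apart. FOS, the founding FOS protein, was at 291 TPM in TE5 scramble, 577 in shTP63, 498 in shSOX2 and 276 in shCCAT1, and at 67.7, 61.4 and 69.2 TPM in KYSE140 scramble, shTP63 and shSOX2. FOSB, which gives a short-lived and a truncated stable protein, was at 19.1, 47.1, 39.9 and 20.6 TPM in the same order in TE5 and at 3.53, 1.97 and 4.62 TPM in KYSE140. FOSL1, the FOS protein most tied to invasive tumor cells, was at 99.8, 51.9, 202 and 76.8 TPM in TE5 and at only 4.22, 2.93 and 4.57 TPM in KYSE140. The lowest TE5 library was above the highest KYSE140 library for all 3 genes.

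FOSL2 had the opposite order. It was at 26.1, 20.7, 31.5 and 21.4 TPM in TE5 scramble, shTP63, shSOX2 and shCCAT1, and at 79.2, 60.8 and 72.4 TPM in KYSE140 scramble, shTP63 and shSOX2. IER3 was also higher in KYSE140, with 648, 451 and 274 TPM, against 122, 107, 115 and 124 TPM in TE5. The ranges of the lines did not overlap for either gene.

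The JUN proteins were near each other in the lines. JUN was at 34.6, 79.1, 47.7 and 40.3 TPM in TE5 scramble, shTP63, shSOX2 and shCCAT1 and at 46.9, 53.8 and 41.1 TPM in KYSE140 scramble, shTP63 and shSOX2. JUNB, often an antagonist of JUN, ranged from 107 to 188 TPM in TE5 and from 135 to 160.1 TPM in KYSE140. JUND, the JUN protein made most steadily in resting cells, ranged from 52.1 to 73.5 TPM and from 53.0 to 62.1 TPM. EGR1 ranged from 87.9 to 145 TPM in TE5 and from 116 to 138 TPM in KYSE140. ATF3 was at 25.6, 92.7, 36.2 and 25.3 TPM in TE5 and at 18.8, 31.3 and 16.2 TPM in KYSE140. The ranges of the lines overlapped for these 5 genes.

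**Figure D1:**
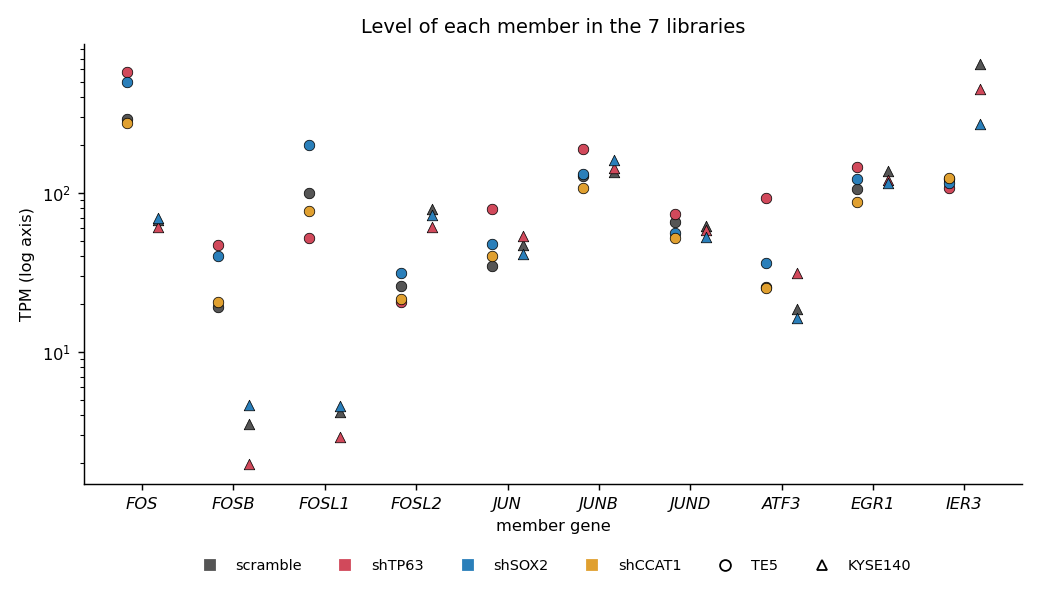
Level of each member (x axis) in TPM (y axis, log scale) in the 7 libraries, with TE5 as circles, KYSE140 as triangles and the shRNA as color; each point is 1 library. FOS, FOSB and FOSL1 sit higher in every TE5 library, FOSL2 and IER3 in every KYSE140 library, and TE5 shTP63 stands apart for ATF3 at 92.7 TPM.

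The difference between the lines was fitted with edgeR on the scramble, shTP63 and shSOX2 libraries of both lines, with the shRNA as a further term. Of 23503 genes tested, 66.8% differed between KYSE140 and TE5 at an adjusted p under 0.1 (quasi-likelihood test, Benjamini-Hochberg), and 6 of the 10 members did. FOSL1 was lower in KYSE140 by a log2 difference of -4.52 (SE 0.25, edgeR adjusted p = 8.56e-06). FOSB differed by -3.05 (SE 0.34, edgeR adjusted p = 0.000196), and FOS by -2.09 (SE 0.20, edgeR adjusted p = 0.000103). FOSL2 was higher in KYSE140 by 1.78 (SE 0.12, edgeR adjusted p = 1.96e-05), as was IER3 by 2.17 (SE 0.21, edgeR adjusted p = 9.40e-05). ATF3 was lower in KYSE140 by -0.68 (SE 0.20, edgeR adjusted p = 0.0230), although its TPM ranges overlapped. JUN, JUNB, JUND and EGR1 had log2 differences between 0.0070 and 0.28 and edgeR adjusted p between 0.118 and 0.968. The libraries of a line are not replicate cultures of it. With the shRNA as a term, these p-values measure how far the line difference varied between scramble, shTP63 and shSOX2 libraries.

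The makeup of the FOS family therefore differed between the lines, whereas that of the JUN family was alike. Summed over FOS, FOSB, FOSL1 and FOSL2, the family came to 436 TPM in TE5 scramble and 155 TPM in KYSE140 scramble. In TE5 scramble, 66.8% of this was FOS, 22.9% FOSL1, 5.99% FOSL2 and 4.38% FOSB. In KYSE140 scramble, 43.8% was FOS and 51.2% FOSL2, with FOSL1 at 2.73% and FOSB at 2.28%. The JUN family summed to 228 and 244 TPM in the same libraries, and JUNB held the largest share in all 7 libraries, from 53.7% to 63.0%. In TE5 the FOS family was at 697 TPM in shTP63, of which 82.8% was FOS and 7.44% FOSL1, and at 771 TPM in shSOX2, of which 64.6% was FOS and 26.2% FOSL1. The family totals of these TE5 libraries were thus near each other while FOSL1 made up very different shares. FOS here sums all its annotated transcripts. Those that keep intron bases of the canonical transcript took 60.4% of FOS TPM in TE5 scramble and 28.0% in KYSE140 scramble. They took 61.8% in TE5 shTP63 and 71.0% in TE5 shSOX2. Family shares without these transcripts were not computed.

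**Figure D2:**
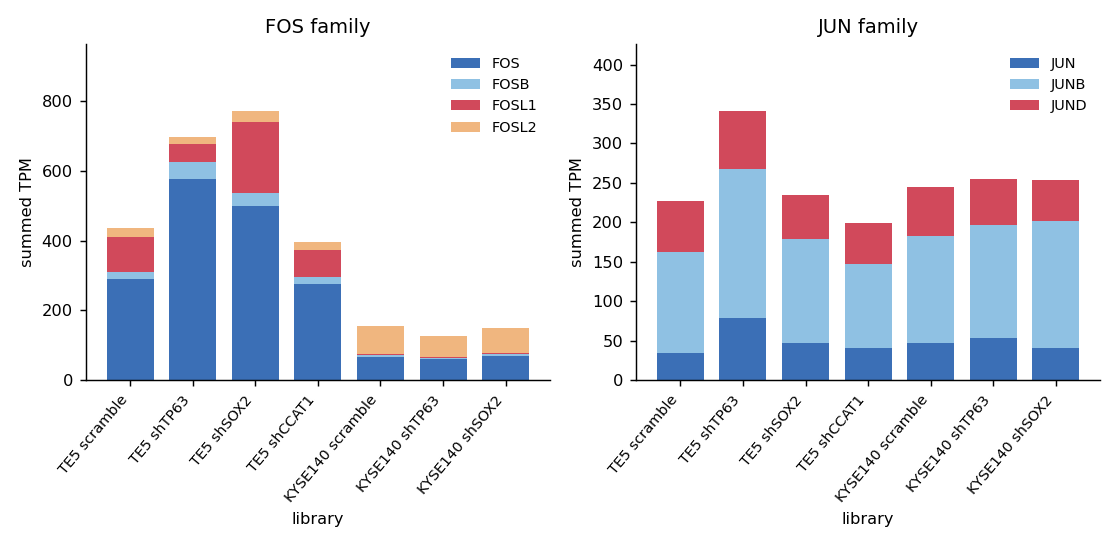
Summed TPM (y axis) of the FOS family (left) and the JUN family (right) in each library (x axis), stacked by member. In TE5 most of the FOS family is FOS with FOSL1, in KYSE140 it is FOS with FOSL2, and JUNB is the largest part of the JUN family in every library. The FOS part includes transcripts that keep intron bases, 60.4% of FOS TPM in TE5 scramble and 28.0% in KYSE140 scramble.

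For the knockdowns, each library was compared with the scramble library of its line as the log2 ratio of normalized counts, estimated counts scaled between libraries with the TMM method of edgeR, with 1 added to each. A gene was counted as higher or lower past a log2 change of 1 or -1, in either direction. The shares of all genes given beside such counts cover genes with at least 10 estimated counts in either library, while each member had at least 254. In the TE5 shTP63 comparison 17821 of the 24471 genes had at least 50. Shares among genes with as many counts as the members were not computed. With 1 library a condition there is no test of the per-line changes, and the 95% intervals given cover counting error only. The median log2 change of all genes was between -0.0073 and 0.064 in the 5 comparisons, while scaling by total counts alone would move that median by 0.14 in TE5 shTP63 and by 0.17 in TE5 shCCAT1.

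In TE5 shTP63, 3 members were higher past the limit, FOSB, JUN and ATF3, where 14.7% of the 24471 genes tested were, and 1 was lower, FOSL1, where 5.45% of genes were. ATF3 had 2414 normalized counts in scramble and 8018 in shTP63, a log2 change of 1.73 (1.67 to 1.80), or 3.32 times the control. FOSB went from 2880.5 to 6421, a log2 change of 1.16 (1.09 to 1.22), and JUN from 6355 to 13042, a log2 change of 1.04 (0.99 to 1.08). FOSL1 had 7746 normalized counts in scramble and 3669.6 in shTP63, a log2 change of -1.08 (-1.13 to -1.02), and this value was inside the limit, at -0.94, when libraries were scaled by total counts alone or TPM was used. FOS was inside the limit with a log2 change of 0.82 (0.80 to 0.84), and JUNB, EGR1 and JUND had 0.40, 0.30 and 0.11. FOSL2 and IER3 were on the other side of 0, with -0.53 and -0.34. The members thus split, with FOS, FOSB, the JUN proteins, ATF3 and EGR1 above scramble and the FOS-like FOSL1 and FOSL2 below it, and the median of the 10 was 0.35 against 0.064 for all genes.

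In KYSE140 shTP63 no member was past the limit in either direction, where 8.72% of the 21912 genes tested were higher and 4.16% lower. ATF3 had the largest change, from 2207 to 3562 normalized counts, a log2 change of 0.69 (0.61 to 0.78). FOSL1 went from 373 to 236 and FOSL2 from 33308 to 23538, log2 changes of -0.66 (-0.91 to -0.41) and -0.50 (-0.53 to -0.48). JUN and JUNB were at 0.17 and 0.044. Hence ATF3, JUN and, by little in KYSE140, JUNB were above, and FOSL1, FOSL2 and IER3 below, the scramble library in both lines. FOS, FOSB, EGR1 and JUND were not: FOSB went from 557 to 372 in KYSE140, a log2 change of -0.58 (-0.78 to -0.38), and FOS, EGR1 and JUND had -0.18, -0.23 and -0.27. The median of the 10 members was -0.25, against 0.046 for all genes.

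In TE5 shSOX2, FOSB and FOSL1 were higher past the limit, 2 members where 6.15% of the 22792 genes tested were, and no member was lower, where 4.8% of genes were. FOSL1 went from 7746 to 16266 normalized counts, a log2 change of 1.07 (1.03 to 1.11), the opposite side of 0 from shTP63 in the same line. FOSB went from 2880.5 to 6047, a log2 change of 1.07 (1.00 to 1.14), and FOS from 21670.2 to 33388, a log2 change of 0.62 (0.60 to 0.65). ATF3 and JUN had log2 changes of 0.53 and 0.48, FOSL2 and EGR1 of 0.29 and 0.23, and JUNB, IER3 and JUND of 0.058, -0.064 and -0.23.

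In KYSE140 shSOX2 the only member past the limit was IER3, which was lower, where 6.09% of the 20809 genes tested were; no member was higher past the limit, where 6.87% of genes were. IER3 went from 45656 to 21752 normalized counts, 47.6% of control, a log2 change of -1.07 (-1.10 to -1.04). In TE5 shSOX2 the same gene was at 95.7% of control. FOSB went from 557 to 937, a log2 change of 0.75 (0.58 to 0.93), and JUNB had 0.42 (0.38 to 0.45). The other 7 members lay between -0.13 and 0.25, and the sign for FOS and FOSL2, at 0.069 and 0.019, flipped when libraries were scaled by total counts alone.

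In TE5 shCCAT1, a library whose CCAT1 level was not checked, no member was past the limit, where 11.7% of the 24176 genes tested were higher and 5.86% lower. JUN was at a log2 change of 0.12 and the other 9 members were below 0, from -0.033 for FOSB to -0.46 (-0.51 to -0.42) for FOSL1, with signs for FOSB, ATF3 and IER3 that flipped when libraries were scaled by total counts alone. Their median was -0.28, against 0.017 for all genes. FOS had 18125 normalized counts against 21670.2 in scramble, and FOSB 2816 against 2880.5, both below the other knockdown libraries of this lane. FOS was at 38280.2 and 33388 normalized counts in TE5 shTP63 and shSOX2, and FOSB at 6421 and 6047. FOS, FOSB and ATF3 were lower past the limit in shCCAT1 than in shTP63, where 14.4% of 25623 genes were, by log2 ratios of -1.08, -1.19 and -1.87, and FOSB and FOSL1 were lower than in shSOX2, where 7.96% of 24389 genes were, by -1.10 and -1.54. No member was higher past the limit than in either, where 9.82% and 12.0% of genes were.

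**Figure D3:**
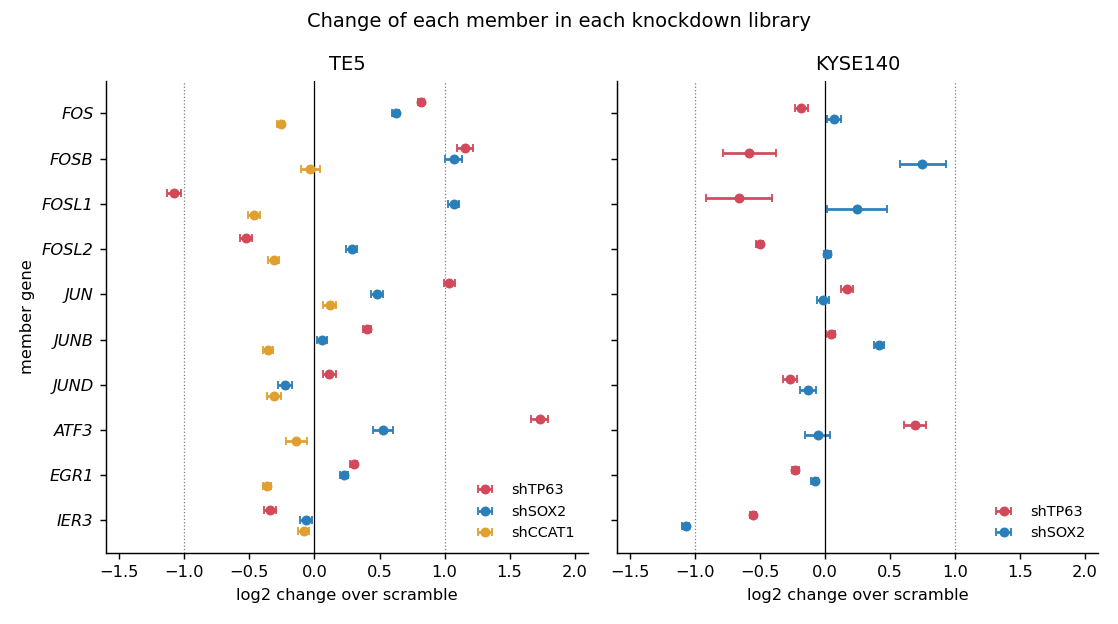
Log2 change (x axis) of each member (y axis) in each knockdown library over the scramble library of its line, TE5 left and KYSE140 right, colored by shRNA; bars are 95% intervals for counting error and dotted lines mark 1 and -1. ATF3, FOSB and JUN lie past 1 with shTP63 in TE5, FOSL1 lies on opposite sides of 0 with shTP63 and shSOX2, and IER3 lies at -1.07 with shSOX2 in KYSE140.

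The libraries with shTP63 and shSOX2 can be compared without the scramble libraries, within a lane. In TE5, ATF3 was higher past the limit with shTP63 than with shSOX2, where 14.2% of 24622 genes were, and FOSL1 was lower, where 6.12% were. In KYSE140, FOSB was lower past the limit, where 6.62% of 22115 genes were, and no member was higher, where 10.2% were. FOSL1 in shTP63 was at 22.6% of its level in shSOX2 in TE5, a log2 ratio of -2.15 (-2.20 to -2.10), and at 53.4% in KYSE140, a log2 ratio of -0.90 (-1.14 to -0.67). FOSL2 was at 56.9% and 69.7%, and ATF3 was 2.31 and 1.68 times as high. JUN was 1.47 and 1.14 times as high. FOSB was near even in TE5, with a log2 ratio of 0.087, but at -1.33 (-1.51 to -1.16) in KYSE140, and FOS, JUNB, JUND, EGR1 and IER3 differed in sign between the lines.

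With the lines taken as replicates, 3 of the 10 members differed between TP63 and SOX2 silencing at an edgeR adjusted p under 0.1, where 4.91% of the 23503 genes tested did, and the same 3 did at an unadjusted p under 0.05, where 17.8% of genes did. FOSL1 was lower upon TP63 silencing by a log2 difference of -1.56 (SE 0.28, edgeR adjusted p = 0.0466), as was FOSL2 by -0.64 (SE 0.14, edgeR adjusted p = 0.0790). ATF3 was higher by 1.03 (SE 0.25, edgeR adjusted p = 0.0929). All 3 moved in the same direction in both lines. The other 7 members had edgeR adjusted p between 0.368 and 1.00, JUN being the lowest of them with 0.42 (SE 0.22). FOSL1 was at -0.99 when TE5 shSOX2 was left out, and ATF3 at 0.60 when TE5 shTP63 was. All 3 calls were lost when the scramble library of TE5 or of KYSE140 was left out of the fit, with edgeR adjusted p for FOSL1 of 0.133 and 0.171, although neither library enters the difference itself. Those of FOSL2 and ATF3 were also lost without TE5 shTP63 (0.101 and 0.193) or TE5 shSOX2 (0.317 and 0.120). Only FOSL1 was called, with an edgeR adjusted p of 0.0925, when transcripts without a gene were kept in the fit as single features.

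**Figure D4:**
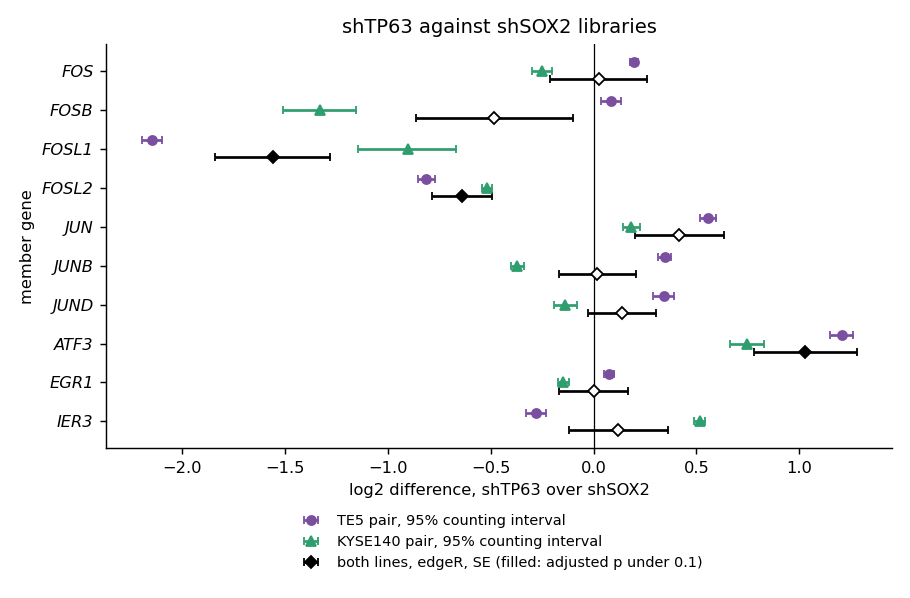
Log2 difference (x axis) of each member (y axis) between the shTP63 and shSOX2 libraries in TE5 and in KYSE140, with 95% counting intervals, and over both lines from edgeR with its standard error, filled where the adjusted p was under 0.1. FOSL1 at -1.56, FOSL2 at -0.64 and ATF3 at 1.03 are the filled points, and each lies on the same side of 0 in both lines.

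Against scramble, no member was called over both lines. For TP63 silencing, 1.23% of the 23503 genes passed an edgeR adjusted p of 0.1; at an unadjusted p under 0.05, 14.7% of genes and 4 members passed. These were ATF3, with a log2 difference of 1.22 (SE 0.25, edgeR adjusted p = 0.111), FOSL2, with -0.51 (SE 0.14, edgeR adjusted p = 0.190), FOSL1, with -0.86 (SE 0.28, edgeR adjusted p = 0.229), and JUN, with 0.61 (SE 0.22, edgeR adjusted p = 0.269). DESeq2 called ATF3, FOSL1 and FOSL2, but it called 1916 genes in all, where edgeR called 288. Calls made without KYSE140 shTP63 restate the TE5 shTP63 library alone, with the spread of the other groups assumed for it. For SOX2 silencing, 0.162% of genes passed the adjusted p; at an unadjusted p under 0.05, 9.22% of genes and 2 members passed, FOSL1 with 0.70 (SE 0.27, edgeR adjusted p = 0.502) and IER3 with -0.57 (SE 0.24, edgeR adjusted p = 0.541), and DESeq2 called none. With a library left out, edgeR called FOSB and FOSL1 (without the shTP63 library of either line), IER3 (without TE5 shSOX2) or FOSL1 (without KYSE140 shSOX2), the latter 2 resting on the shSOX2 library of 1 line. The remaining members had edgeR adjusted p of at least 0.434 for TP63 and at least 0.556 for SOX2 silencing.

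Other genes of these pathways were read from lists of partners, regulators and targets. The lists, too, were chosen with earlier results of these data known, so their counts and medians are a description. Of the 18 other immediate early genes, 8 were higher past the limit in TE5 shTP63 (EGR3, EGR4, NR4A1, NR4A2, NR4A3, DUSP1, ZFP36 and CCN1), where 14.7% of all genes were, and none was lower, with a median log2 change of 0.85 against 0.064 for all genes. Of these 8, EGR4, NR4A3 and EGR3 had only 12.7, 36.0 and 52.2 normalized counts in TE5 scramble. NR4A1, CCN1 and ZFP36 passed the limit narrowly, at log2 changes of 1.01, 1.02 and 1.04. DUSP1, a phosphatase that turns off MAP kinases, went from 4348 to 12751 normalized counts, and CCN1, a secreted matrix protein, from 11504 to 23379. In KYSE140 shTP63, 1 of 17 tested was higher, CCN2, where 8.72% of all genes were, and the median was 0.018. In the TE5 shSOX2 and shCCAT1 libraries none was higher past the limit, where 6.15% and 11.7% of all genes were. In shCCAT1, EGR2, EGR4, NR4A3 and CCN2 were lower, where 5.86% of all genes were. Of these, EGR4 and NR4A3 had only 12.7 and 36.0 normalized counts in scramble. Over both lines, NR4A3, an orphan nuclear receptor, was higher with TP63 than with SOX2 silencing by 2.19 (edgeR adjusted p = 0.0503), and BTG2 was lower. NR4A3 was below scramble in both shSOX2 libraries, at -1.45 in TE5 and -1.59 in KYSE140, and at 1.29 and 0.025 in the shTP63 libraries, and BTG2 was higher past the limit in KYSE140 shSOX2. The NR4A3 call was lost without either scramble library or without a line term, and none of the 18 was called against scramble.

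Among 9 MAP kinases and their activating kinases, 2 were lower past the limit in TE5 shTP63, where 5.45% of all genes were, and none in KYSE140 shTP63, where 4.16% were, or in the other knockdown libraries. MAP2K1 (MEK1), which activates ERK, had 11971 normalized counts in TE5 scramble and 5461 in shTP63, and 12932 and 7807 in the KYSE140 pair. It was the only kinase of the list called against scramble, at -0.92 (edgeR adjusted p = 0.0906), a call lost with transcripts kept as single features (0.159), without either scramble library (0.418 and 0.856) and without a line term. MAP2K4, which activates JNK and p38, had 2964 and 1435 in the TE5 pair and 3997 and 2558 in the KYSE140 pair. It was lower with TP63 than with SOX2 silencing (edgeR adjusted p = 0.0462), by log2 ratios of -1.32 in TE5 and -0.74 in KYSE140, as were the p38 kinase MAPK14 (-0.71 over both lines, edgeR adjusted p = 0.0699), MAP2K7 and MAP2K1. Without either scramble library, without TE5 shSOX2 or without a line term the calls of MAP2K4 and MAPK14 were lost. That of MAPK14 was also lost without TE5 shTP63, without KYSE140 shSOX2 and with transcripts kept as single features. The median of the 9 kinases was -0.62 in TE5 shTP63 and -0.43 in KYSE140 shTP63, and 0.021 and 0.10 in the shSOX2 libraries. Serum response and ternary complex factors had 1 of 6 past the limit in 1 library, ELK3, which was lower in KYSE140 shTP63, where 4.16% of all genes were.

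Among 7 MAP kinase phosphatases and feedback inhibitors, DUSP5, a nuclear ERK phosphatase, went from 1190.0 normalized counts in TE5 scramble to 3367 in shTP63 and 5048 in shSOX2, with 1321 in shCCAT1, and stayed between 1041 and 1243 in KYSE140. DUSP4 was also higher past the limit in TE5 shTP63 and SPRY4 in TE5 shSOX2, where 14.7% and 6.15% of all genes were. None was past it in KYSE140 shTP63 or shSOX2, where 8.72% and 6.87% of all genes were higher and 4.16% and 6.09% lower. Of 9 AP-1 partners, 1 was past the limit in 1 library, BATF in TE5 shTP63, where 14.7% of all genes were higher. BATF had only 4.24 normalized counts in TE5 scramble and 60.1 in shTP63, and was not among the genes tested with edgeR. BATF2 was at 9.20 to 14.9 TPM in TE5 and at most 0.0850 TPM in KYSE140.

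Known AP-1 targets went both ways. Of 14 tested, 2 were higher and 2 lower past the limit in TE5 shTP63, where 14.7% and 5.45% of all genes were. There were 3 and 1 in TE5 shSOX2 (6.15% and 4.8% of all genes) and none in shCCAT1 (11.7% and 5.86%). In KYSE140 shTP63 none was higher and 4 were lower (8.72% and 4.16%). There were 4 and 1 in KYSE140 shSOX2 (6.87% and 6.09%). MMP1, an interstitial collagenase, went from 13588 normalized counts in TE5 scramble to 973 in shTP63, and from 18.0 to 5.58 in KYSE140, where it was at 107 with shSOX2, so that its KYSE140 values rest on few counts. Over both lines it was lower upon TP63 silencing by -3.37 (edgeR adjusted p = 0.0953). PLAUR, the urokinase receptor, went from 2163 to 4570.1 in TE5 shTP63 and from 1027 to 1877 in KYSE140 shTP63, a log2 difference of 0.98 over both lines (edgeR adjusted p = 0.0854). The MMP1 and PLAUR calls were lost with transcripts kept as single features, without either scramble library and without a line term, and MMP1 was at -0.97 without TE5 scramble. PLAU, urokinase itself, went from 12279 to 26113 in TE5 shSOX2 and from 944 to 2046 in KYSE140 shSOX2. MMP10, another matrix protease, was at log2 changes of -1.27 and -1.40 in TE5 shTP63 and shSOX2 and at 1.91 in KYSE140 shSOX2. Of the 14 targets, 10 were lower in KYSE140 than in TE5 at an edgeR adjusted p under 0.1, where 34.8% of all genes were lower, such as TIMP1, with 231 to 290.0 TPM in TE5 and at most 9.71 TPM in KYSE140, and CXCL8, with 70.4 to 111 TPM and at most 4.77 TPM.

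Of 7 genes of the ATF4 stress response, in which ATF3 also takes part, 1 was higher past the limit in each of TE5 shTP63 (DDIT3), TE5 shSOX2 (DDIT4) and KYSE140 shTP63 (CHAC1). In these libraries 14.7%, 6.15% and 8.72% of all genes were higher. ASNS was lower in KYSE140 shSOX2, where 6.09% of all genes were. SESN2 was the only one called for TP63 silencing over both lines, at 0.84 (edgeR adjusted p = 0.0953). That call was also lost with single features, without either scramble library, without TE5 shTP63 (where SESN2 was at 0.71) and without a line term. ASNS, asparagine synthetase, was higher with TP63 than with SOX2 silencing by 1.17 (edgeR adjusted p = 0.0347), as were CHAC1 and DDIT3. The ASNS call was lost without either scramble library or without a line term. ASNS had 9529.8, 10587 and 3841 normalized counts in KYSE140 scramble, shTP63 and shSOX2. No heat shock gene of 6 was higher past the limit in any knockdown library, where between 6.15% and 14.7% of all genes were. HSPB1 was lower in KYSE140 shTP63, where 4.16% of all genes were.

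The transcripts behind these gene sums differed between the lines as well. Transcripts of FOS that keep intron bases of its canonical transcript took 60.4% to 71.0% of FOS TPM in the TE5 libraries and 28.0% to 40.4% in the KYSE140 libraries. For ATF3 the shares were 33.8% to 35.3% and 9.31% to 10.7%. FOS-201, the canonical FOS transcript, took 28.9% to 39.2% of FOS TPM in TE5 and 58.7% to 70.4% in KYSE140. In FOSB such transcripts took 51.9% to 76.7% in all 7 libraries, and in FOSL2 from 13.3% to 27.3%, with the highest share in TE5 shTP63. JUN, JUNB and EGR1 were each measured as 1 transcript.

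Of the 9 ATF3 transcripts, 5 start in 2 regions on chromosome 1 that were compared, the start of its canonical transcript between 212782012 and 212782257 and an upstream start at 212738676 (hg19). The other 4 transcripts were left out of this comparison, and the 2 regions held 77.8% to 97.4% of ATF3 counts. Transcripts from the upstream start had 277 normalized counts in TE5 scramble, 779 in shTP63, 399 in shSOX2 and 736 in shCCAT1, and 96.1, 504 and 312 in KYSE140 scramble, shTP63 and shSOX2. They were thus above scramble in all 5 knockdown libraries, by log2 changes between 0.53 and 2.38. Those from the canonical start had 1711, 5924, 2475 and 967 normalized counts in TE5 and 2054, 2928 and 1735 in KYSE140. In TE5 shCCAT1 the start regions therefore went opposite ways, the upstream start at 1.41 (1.21 to 1.62) and the canonical start at -0.82 (-0.93 to -0.71), while the gene as a whole was at -0.14. The upstream start held 33.6% of all ATF3 counts in that library and between 4.35% and 14.7% in the other 6. As these transcripts share their coding exons, the split rests on the reads over their 5′ exons and on the assignment made by kallisto.

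**Figure D5:**
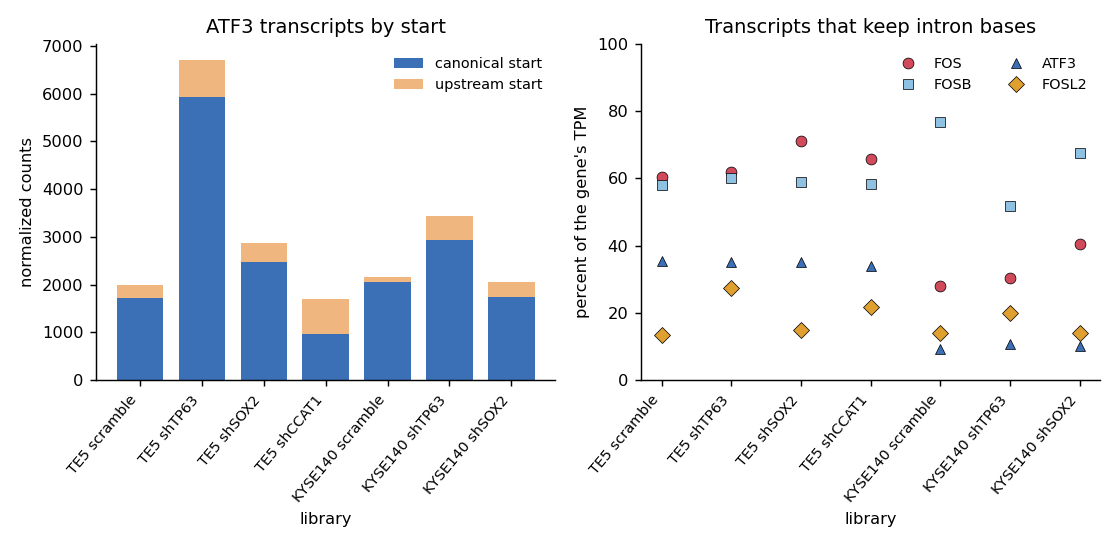
Left, normalized counts (y axis) of ATF3 transcripts in each library (x axis), stacked by start region, without 4 transcripts that start elsewhere; right, percent of the gene's TPM (y axis) in transcripts that keep intron bases of the canonical transcript, for FOS, FOSB, ATF3 and FOSL2. The upstream start holds 33.6% of all ATF3 counts in TE5 shCCAT1, and the FOS and ATF3 shares on the right are lower in every KYSE140 library.

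Reads that could come from other genes were few for most members. The share of their 31-base words found in a transcript of another gene was 28.4% for IER3, shared with the overlapping IER3-AS1 on the other strand and 1 more gene listed at 0, 12.7% for JUNB, with the neighbor HOOK2, 6.86% for FOSL1, with the pseudogene FOSL1P1, and at most 0.986% for the other 7. IER3-AS1 had at most 32.8 normalized counts and FOSL1P1 at most 2.77, far below IER3 and FOSL1, while HOOK2 had 4596 to 11937, so part of the JUNB counts is uncertain.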

How the data were processed

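The deposited files, made by the authors with kallisto on hg19 Ensembl transcripts from 100-base paired reads, hold estimated counts and TPM per transcript. The kallisto version is not given in the sources used here. Transcripts were assigned to genes by GENCODE (GRCh37), which covered 93.6% of counts, or by their neighbors in the files (3.72%), and 2.70% of counts were left unassigned and out of gene sums. Per-line ratios used genes with at least 10 estimated counts in either library and TMM scaling over the 7 libraries. Their 95% intervals are exact binomial and cover counting error only. edgeR 4.0.16 was run on rounded counts of 6 libraries (scramble, shTP63 and shSOX2 of both lines) with terms for line and shRNA, filterByExpr and the quasi-likelihood test. The code was tested on simulated data with less spread, no line difference and larger shRNA changes than the members had. That test checks the code and not the power of the fit on these data. DESeq2 1.42.0 was an alternative. Members and lists were chosen with earlier results of these data known. Listed genes are named where past the limit in the same direction in at least 2 knockdown libraries (largest 3 a list, at least 100 counts), or past an edgeR adjusted p of 0.1 (up to 5 a comparison); other names were added after values were seen. Further results, on 1 marker and 1 promoter window, are not reported here.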

Additional observations from a re-analysis of the deposited data

Results flagged for a closer look

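The results below stand out because the library of TE5 and that of KYSE140 lay on opposite sides of scramble upon the same silencing, with counting intervals that did not hold 0; the difference was not tested, with 1 library of each line. Upon TP63 silencing, FOS had log2 changes of 0.82 in TE5 and -0.18 in KYSE140. FOSB had 1.16 and -0.58. JUND had 0.11 and -0.27. EGR1 had 0.30 and -0.23. Upon SOX2 silencing, EGR1 had 0.23 in TE5 and -0.080 in KYSE140.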

How the results depend on the processing

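No paired analysis was possible because each condition of a line had 1 library, so that replicate numbers pair nothing; the line term of the edgeR fit already sets each knockdown beside the scramble library of its line. The number of members past the limit in each knockdown library was the same under the DESeq2 size factors, a pseudocount of 10 and count minimums of 1 or 50; scaling by total counts alone or summed TPM left 0 members lower in TE5 shTP63 in place of 1. Against the shTP63 library of the lane, itself a knockdown in which FOSB was 1.16 above scramble, FOSB in TE5 shSOX2 was at -0.087 in place of 1.07, ATF3 at -1.21 in place of 0.53 and JUN at -0.56 in place of 0.48; this is another comparison more than another control. The count of members called for TP63 silencing was 0 and became 3 with DESeq2, 3 without a filter and 1 with TE5 shCCAT1 added; leaving out a library gave 0 to 6, the latter without KYSE140 shTP63. For SOX2 silencing leaving out a library gave 0 to 2. For TP63 against SOX2 silencing the 3 calls became 0 without a line term and 1 with transcripts kept as single features (chosen after seeing the data), and 0 to 4 with a library left out; without TE5 shSOX2 it was 1 and without either scramble library 0. For the lines it was 6 to 9 with a library left out, 9 without the shTP63 library of either line. Genes called in all were 288, 38 and 1155 for TP63 silencing, SOX2 silencing and their difference, and 1916, 700 and 2662 with DESeq2, 1419, 485 and 2221 without a filter, 0, 0 and 0 without a line term, and 0, 14 and 581 with single features. Leaving out a library gave 0 to 2796, 0 to 993 and 5 to 3081, the lowest of each without a scramble library. Adding the unmatched transcript next to FOSL2 changed its log2 changes by little, to between -0.53 and 0.28. What depth limits here is FOSL1 in KYSE140, with 236 to 443 normalized counts. The cause of the shifts was not tested.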
